A study of Mus musculus with 6 samples.

Results

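The Hippo pathway genes described here are 10 of the 24704 named genes measured in whole mouse lung: the kinases Lats1 and Lats2, the coactivators Yap1 and Wwtr1 (whose protein is called TAZ), the DNA-binding partners Tead1, Tead2, Tead3 and Tead4, and the targets Ccn1 and Ccn2. They were taken by their gene symbols in the array platform's annotation, and each of the 10 has 1 probe set. The series profiled lungs by single-colour Affymetrix arrays and asked how losing NFAT5, an osmosensitive transcription factor, from endothelial cells (EC) alters lung transcripts under hypoxia. The 3 control arrays came from Nfat5fl/fl mice that had been given miglyol, the solvent, and spent 7 days in hypoxia. The 3 knockout arrays came from Nfat5(EC)-/- mice that had received 1 mg of tamoxifen daily for 5 days, and were kept in hypoxia for the same 7 days. Both groups were adult mice of both sexes, treated at 10 to 12 weeks of age and rested for 2 to 3 weeks. Genotype and tamoxifen therefore differ together between the groups and cannot be told apart, and no group breathed normal air. Which promoter drives the Cre is not stated in the sources used here.

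In the Hippo pathway a kinase cascade ends in LATS1 and LATS2, which phosphorylate YAP and TAZ and so keep them in the cytoplasm or send them to degradation. When the kinases are less active, YAP and TAZ enter the nucleus, bind TEAD proteins and switch on genes such as Ccn1 and Ccn2, which code for secreted matricellular proteins. In lung and its vessels the pathway is known for coupling cell contact and mechanical stretch to growth, and its activity is set largely by phosphorylation, which transcript levels do not measure.

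Values are log2 expression per probe set after RMA, so that a difference of 1 is a doubling. The arrays had a median of 2.98 and a lower quartile of 2.02, and all 10 genes lay above the median on all 6 arrays. Nfat5 averaged 6.51 ± 0.18 in control lungs and 4.28 ± 0.34 in knockout lungs (mean ± SD of 3 arrays), so the knockout arrays carried less of it as labelled, although where its probes lie relative to the deleted part is not given. The alveolar type 2 marker Sftpc was at 12.2 in controls and 11.8 in knockouts, so lung tissue was present in both. Control replicate 1 stood apart in Xist, the female-specific RNA (8.22, against at most 2.37 on each other array). Kdm5d, from the Y chromosome, was 1.57 there, 3.94 or more in the remaining controls and 2.16 or less in every knockout. The knockouts were thus low in both genes, and how the sexes were balanced between the groups cannot be told from them. The median of 106 snoRNAs was 4.01 to 4.20 on control and 6.43 to 7.43 on knockout arrays, and longer genes were more often lower in the knockout. The part of these shifts in the changes below was not tested, except that the trend with gene length was removed as an alternative. Lungs in bulk cannot separate fewer cells of a type from less RNA per cell.

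The Hippo pathway genes moved in both directions, also within the TEAD family. Of the 10 genes 6 passed the threshold in either direction, where 25.5% of all genes did. Of these, 5 were higher in the knockout (limma, adjusted p under 0.05 over all 24704 genes), against 12.5% of all genes: Tead2, Tead3, Tead4, Ccn1 and Ccn2. The only fall among the 10 was that of Lats1, where 13.0% of all genes fell. Yap1, Wwtr1, Tead1 and Lats2 did not pass. All 10 genes are among the brighter ones, where calls were more frequent. In a fit of only the 12352 genes not below the median of mean level, 23.3% were higher and 23.5% lower. Tead1 passed as lower in that fit as well. The 5 higher genes became 1 (Tead3) without control replicate 1, where 6.18% of all genes were higher. They became 3 without control replicate 3 (5.63% of all genes) or after removal of the trend with gene length (12.9% of protein-coding genes). The median log2 fold change of the 10 was 0.35, against 0.04 over all genes. The groups did not overlap for 8 of the 10 genes (41.9% of all genes). The 3 knockout values lay above all 3 control values for the 5 genes that rose (21.9% of all genes) and below them for Lats1, Lats2 and Tead1 (20.0% of all genes), and Yap1 and Wwtr1 were the 2 that overlapped. The labels do not tie each array to an animal, so p-values measure the spread between these samples, which may in part be technical.

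**Figure D1:**
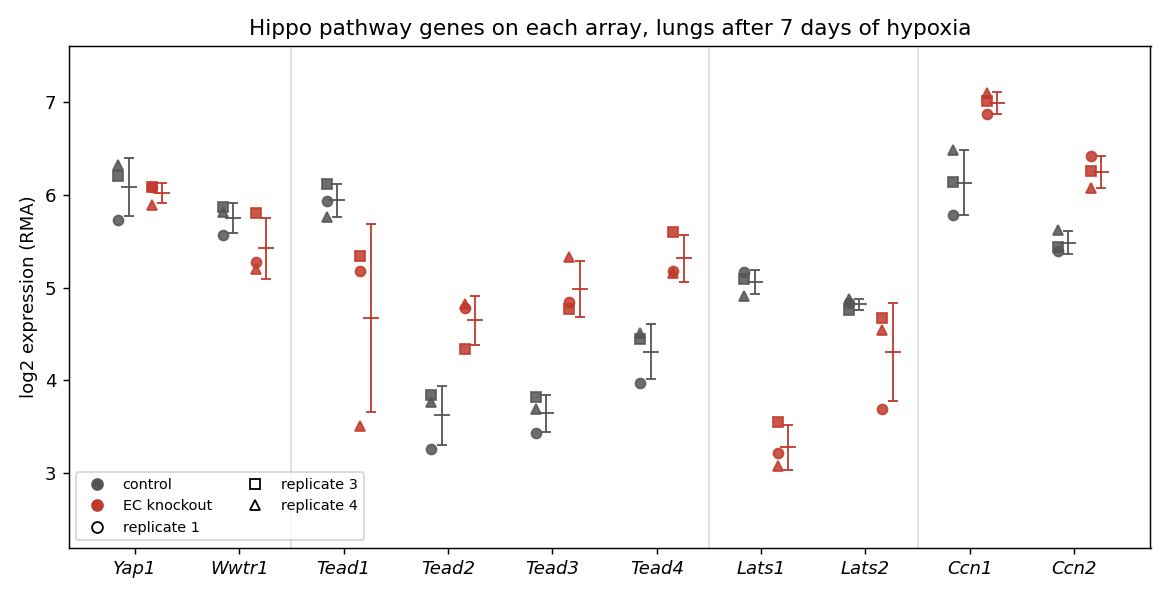
The log2 expression (RMA) of each of the 10 genes is plotted for each array, with controls in grey, EC knockouts in red, marker shape by replicate number, and the mean ± SD of each group (n = 3) beside the points. The knockout points of Tead2, Tead3, Tead4, Ccn1 and Ccn2 sit above all control points, those of Lats1, between 3.08 and 3.55, sit below them, and 1 Tead1 value, 3.51, lies far below the other knockout values.

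The largest change was in Lats1, the kinase that phosphorylates YAP and TAZ directly. Its log2 values were 5.17, 5.09 and 4.91 in controls and 3.22, 3.55 and 3.08 in knockouts. The groups were far apart relative to their spread, with SDs of 0.13 and 0.24. Lats1 fell by 1.78 ± 0.20 log2 units, a 3.42-fold difference (SE; limma, adjusted p = 0.0018), and ranked 139 among all genes by p. Its fall stayed between −1.91 and −1.62 under every alternative run, with an adjusted p of at most 0.018. The length trend, which lowers genes of its span (35.3 kb) on average, changed it little, from −1.78 to −1.62.

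Lats2, the second kinase of the pair and itself a target gene of YAP and TAZ, did not pass. Its log2 values were 4.83, 4.76 and 4.87 in controls and 3.70, 4.67 and 4.54 in knockouts. All knockout values were lower, but the distance came mainly from knockout replicate 1. The log2 fold change was −0.52 ± 0.27, with a 95% interval of −1.12 to 0.08 (limma, adjusted p = 0.19), and it was −0.22 without knockout replicate 1. The log2 ratio of Lats1 to Lats2 within an array shifted by −1.26, from 0.24 ± 0.17 in controls to −1.02 ± 0.50 in knockouts (SD, n = 3 each). That shift, a pairing picked after the values were seen, had a two-sided exact permutation p = 0.1, the smallest that 3 against 3 allows, and also 0.1 after Benjamini-Hochberg adjustment over the 3 ratios examined.

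The coactivators did not pass the threshold. Yap1 stood at 5.73, 6.20 and 6.32 in controls and 6.09, 6.08 and 5.89 in knockouts. The knockout values lay inside the control range. The log2 fold change was −0.06 ± 0.21 (limma, adjusted p = 0.87), and its 95% interval of −0.55 to 0.42 leaves room for changes of up to about that size in either direction. Wwtr1, the paralogue of Yap1, stood at 5.57, 5.87 and 5.81 in controls and 5.27, 5.80 and 5.19 in knockouts. Only knockout replicate 3 reached into the control range. The log2 fold change was −0.33 ± 0.22 (95% interval −0.83 to 0.18; limma, adjusted p = 0.33). After removal of the trend with gene length, both point estimates turned positive (0.26 for Yap1 and 0.052 for Wwtr1) and neither passed, so no direction can be given for them.

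The TEAD family, which carries YAP and TAZ to DNA, did not move as a block. Tead3 showed the largest rise: its log2 values were 3.43, 3.82 and 3.69 in controls and 4.84, 4.77 and 5.33 in knockouts. Every knockout value exceeded the highest control value by more than the whole control range. Tead3 rose by 1.34 ± 0.22 log2 units (2.52-fold; limma, adjusted p = 0.0042) and kept its call under every alternative run, between 1.16 and 1.44.

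Tead2 and Tead4 rose by similar amounts from similar spreads. Tead2, the family member best known from early embryonic and neural tissue, stood at 3.26, 3.84 and 3.77 in controls and 4.78, 4.34 and 4.82 in knockouts. Tead4, known for its part in the trophectoderm and in muscle, stood at 3.97, 4.44 and 4.51 in controls and 5.18, 5.60 and 5.16 in knockouts. In both genes control replicate 1 was the lowest array, as it also was for Tead3, Ccn1, Ccn2 and Yap1. Tead2 rose by 1.02 ± 0.23 (2.03-fold; limma, adjusted p = 0.014) and Tead4 by 1.01 ± 0.23 (2.01-fold; adjusted p = 0.013). Both lost the call without control replicate 1, at 0.84 (adjusted p = 0.062) and 0.84 (adjusted p = 0.060), the array with high Xist. Tead4 spans 73.7 kb, in the longest bin of protein-coding genes, whose median log2 fold change was −0.33, and with the length trend removed its rise was larger, 1.34.

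Tead1, the widely expressed founding member of the family, went the other way. Its log2 values were 5.94, 6.12 and 5.76 in controls and 5.18, 5.34 and 3.51 in knockouts. All knockout arrays were lower, and knockout replicate 4 was far below its group mates. The log2 fold change was −1.26 ± 0.43 (95% interval −2.24 to −0.29) and narrowly missed the threshold (limma, adjusted p = 0.061). Without knockout replicate 4 it was −0.68 (adjusted p = 0.0504), and without knockout replicate 1 or 3 it passed, at −1.51 and −1.59. Tead1 is the longest of the 10 genes, at 227.4 kb, and stood at −0.90 with the length trend removed (adjusted p = 0.13). The log2 ratio of Tead3 to Tead1 within an array shifted by 2.60. It went from −2.29 ± 0.22 in controls to 0.31 ± 1.32 in knockouts (SD, n = 3 each). Knockout replicate 4 stood at 1.82, against −0.33 and −0.57 on the other knockout arrays. That the groups did not overlap follows from pairing a gene higher on all knockout arrays with 1 lower on all of them. The exact permutation p was thus fixed by that choice at the smallest possible, 0.1 (two-sided), and 0.1 adjusted over the 3 ratios.

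**Figure D2:**
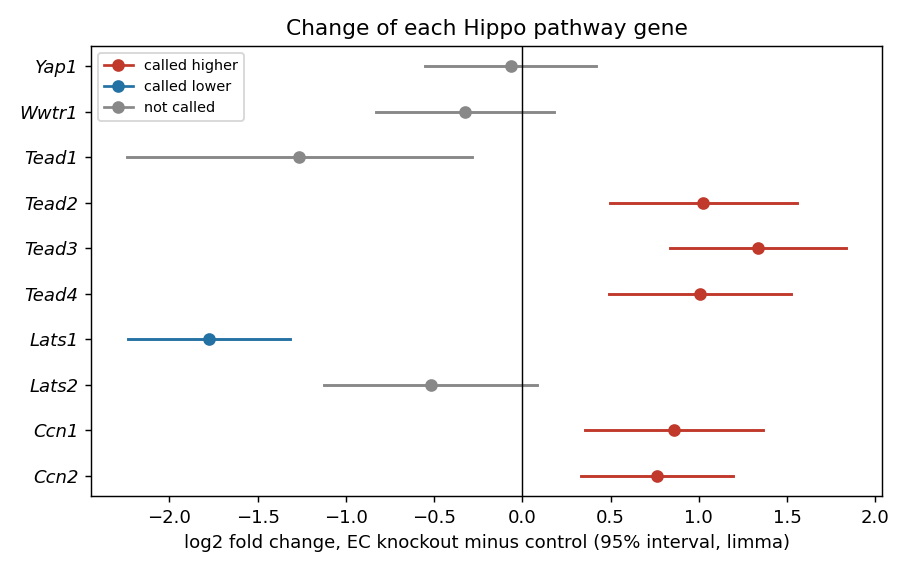
The log2 fold change of each of the 10 genes, EC knockout minus control, is drawn as a point with its 95% interval from limma (n = 3 arrays per group), coloured by whether the adjusted p was under 0.05. Tead2, Tead3, Tead4, Ccn1 and Ccn2 lie to the right of 0, Lats1 lies at −1.78, the intervals of Yap1, Wwtr1 and Lats2 cross 0, and the wide interval of Tead1 runs from −2.24 to −0.29 without a call.

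Ccn1 and Ccn2, formerly Cyr61 and Ctgf, are the classical readouts of YAP and TAZ and also respond quickly to serum, stretch and TGF-beta. Ccn1 stood at 5.78, 6.13 and 6.48 in controls and 6.86, 7.00 and 7.10 in knockouts. Ccn2 stood at 5.40, 5.43 and 5.62 in controls and 6.41, 6.25 and 6.07 in knockouts. For both genes the groups did not overlap, and the knockout arrays of Ccn1 were closer together (SD 0.12) than its controls (SD 0.35). The rise was 1.81-fold for Ccn1 (log2 0.86 ± 0.22; limma, adjusted p = 0.023) and 1.70-fold for Ccn2 (0.76 ± 0.19; adjusted p = 0.019).

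These are the smallest of the 5 rises, and the ones whose calls were lost in the most settings. Ccn1 lost the call without control replicate 1 (0.68, adjusted p = 0.094), control replicate 3 (0.86, adjusted p = 0.081) or knockout replicate 4 (0.80, adjusted p = 0.052). Ccn2 lost it without control replicate 1 (0.72, adjusted p = 0.079) or control replicate 3 (0.74, adjusted p = 0.081). Calls were fewer over all genes too: 6.18% were higher without control replicate 1 and 5.63% without control replicate 3, against 12.5% with all arrays. Both genes are short, at 3.02 and 3.24 kb, in the bin of shortest protein-coding genes, whose median log2 fold change was 0.17. With the length trend removed Ccn1 stood at 0.56 (adjusted p = 0.085) and Ccn2 at 0.46 (adjusted p = 0.11). The log2 ratio of Ccn2 to Yap1 shifted by 0.83, from −0.60 ± 0.23 to 0.23 ± 0.09 (SD, n = 3 each; exact permutation p = 0.1, two-sided, the smallest possible, and 0.1 adjusted over the 3 ratios). The groups already did not overlap for Ccn2 alone, and Yap1 had no called change. The p-value of this ratio was thus largely set by the choice of the pair and is no separate evidence.

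**Figure D3:**
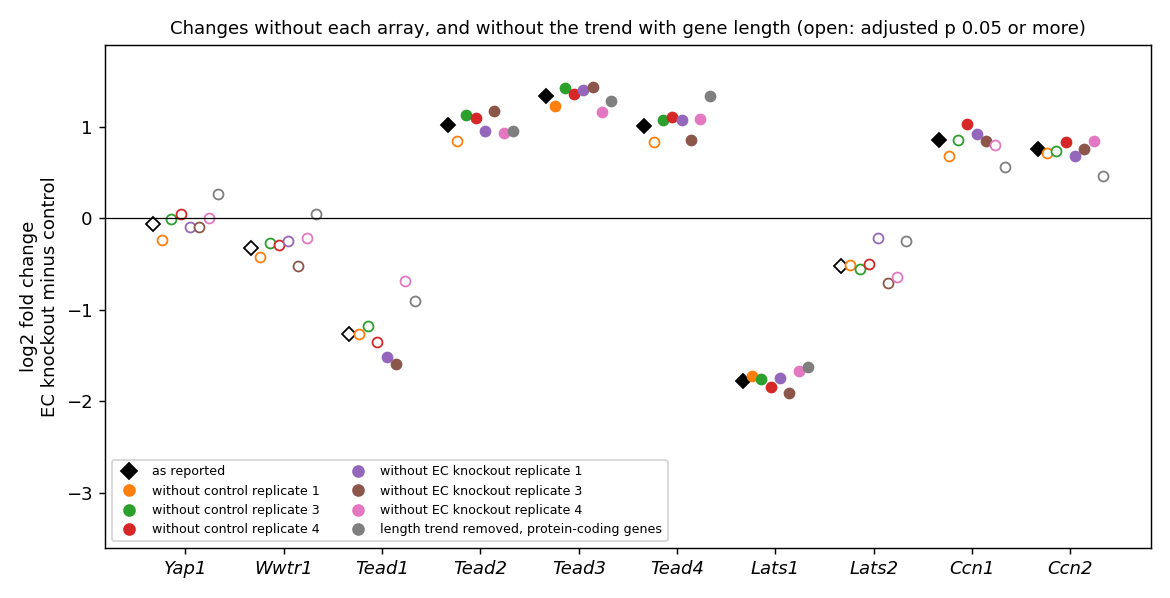
The log2 fold change of each gene, EC knockout minus control, is shown as reported (diamond), without each of the 6 arrays in turn, and after removal of the trend with gene length on every array (circles). Filled symbols have an adjusted p under 0.05 (limma), open ones do not. Lats1 and Tead3 are filled throughout, and Ccn1 and Ccn2 are open in several settings. Yap1 is open throughout, from −0.24 without control replicate 1 to 0.26 with the length trend removed.

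TEAD proteins bind the letters GGAATG, so the 250 bases before each RefSeq start (mouse, GRCm38.p6) were searched for it on both strands. A window was found for 7 of the 10 genes, and of these 4 hold the motif in their most upstream window, Ccn1, Tead3, Wwtr1 and Yap1, where 12.6% of all 32851 windows of that length do. The Ccn1 window is shown because Ccn1 is a target gene that rose. It lies on the minus strand at chr3:145649986-145650235 and carries the motif as CATTCC, its reverse complement, 103 to 98 bases before the start, here in capitals.

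Ccn1: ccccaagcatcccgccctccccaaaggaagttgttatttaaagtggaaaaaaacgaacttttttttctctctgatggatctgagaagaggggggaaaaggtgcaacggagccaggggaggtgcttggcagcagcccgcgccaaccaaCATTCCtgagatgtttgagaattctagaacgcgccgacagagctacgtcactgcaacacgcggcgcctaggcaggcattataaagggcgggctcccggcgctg

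The same letters in the other windows are set side by side in stretches of 30 bases, with the motif in capitals, to compare a gene that rose with the coactivators that did not pass. They begin 182 bases before the start in Tead3, 136 in Wwtr1 and 141 in Yap1. Only the most upstream window of each gene is shown. A second Tead3 window holds 2 further matches, as CATTCC, beginning 123 and 114 bases before its own start. A second Wwtr1 window, overlapping the first, holds the same stretch again.

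Tead3: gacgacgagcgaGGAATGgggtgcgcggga
Wwtr1: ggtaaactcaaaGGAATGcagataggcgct
Yap1: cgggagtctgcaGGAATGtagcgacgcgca

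The motif thus occurs both in genes that rose and in genes that did not pass, and it was not found in these windows for Lats1, Lats2 or Tead2. The AP-1 motif TGANTCA, held by 6.75% of all windows, and the CArG box of SRF, held by 1.47%, were found in 0 of the 7 most upstream windows. A match is a string of letters, not a measured binding site.

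Most genes of the 8 further lists around the pathway are also among the brighter ones. In the fit of only genes not below the median of mean level, 23.3% were higher and 23.5% lower. Among these lists, the Hippo kinases and adaptors fell or did not pass: of 11 measured members 4 were lower and 0 higher. Over all genes 13.0% were lower and 12.5% higher. The list's median log2 fold change was −0.58, against 0.04 over all genes. Many of these members are long genes, Taok1 and Taok3 among them. In the longest bin of protein-coding genes 31.5% were lower and 5.41% higher, with a median of −0.33. Mob1a and Mob1b are shorter and lie outside that bin. Mob1b still lies in the next longest bin, where 23.6% were lower and 10.4% higher, with a median of −0.14. Taok1, a kinase at the head of the cascade, ran from 6.71 to 7.07 in controls and from 4.35 to 5.53 in knockouts, and fell by 1.89 ± 0.29 (limma, adjusted p = 0.0034). Mob1b, the activating partner of LATS kinases, ran from 5.29 to 5.84 and from 3.74 to 4.59, and fell by 1.50 ± 0.27 (adjusted p = 0.0054). Its paralogue Mob1a stood at −1.05 ± 0.30 and Taok3 at −0.81 ± 0.18 (adjusted p = 0.035 and 0.013). Both lost the call if control replicate 1 or 3 was left out. The count of lower members was then 2, where 6.54% and 6.04% of all genes were lower. Mob1a also lost it without control replicate 4 or knockout replicate 4, and Taok3 after removal of the length trend (−0.44), where 1 member was higher. The groups did not overlap for 9 of the 11 members, all 9 lower in the knockout (20.0% of all genes), although 7 of the 11 did not pass.

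Regulators at junctions and of cell polarity, which hold YAP at the membrane or feed the kinases, rose at 4 of 13 and fell at 2 (median 0.16), a count of falls near the 13.0% of all genes, while 12.5% of all genes rose. Wtip, a LIM protein that can restrain LATS kinases, ran from 4.05 to 4.35 in controls and from 5.59 to 5.61 in knockouts, and rose by 1.42 ± 0.18 (limma, adjusted p = 0.0022). The polarity genes Scrib and Crb3 rose by 1.27 ± 0.22 and 1.14 ± 0.20 (adjusted p = 0.0045 and 0.0052). Fat4, an atypical cadherin upstream of the pathway, ran from 4.37 to 4.60 in controls and from 3.00 to 3.53 in knockouts and fell by 1.20 ± 0.21 (adjusted p = 0.0049). Without control replicate 1, 3 or 4 in turn the count of lower members was 1. In those fits 6.54%, 6.04% and 9.39% of all genes were lower.

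Genes whose products hold phosphorylated YAP in the cytoplasm or mark it for degradation rose at 5 of 9 and fell at 2 (median 0.65). Over all genes 12.5% rose and 13.0% fell. In the fit of brighter genes 23.3% rose and 23.5% fell, so the 2 falls lie near that share. Sfn and Ywhaq, adaptors that bind phosphorylated proteins, rose by 1.17 ± 0.20 and 1.24 ± 0.23 (limma, adjusted p = 0.0045 and 0.0060). Their relative Ywhae stood at −0.78 ± 0.19 (adjusted p = 0.018), a call lost without control replicate 1 or 4, and the casein kinase Csnk1d at 0.65 ± 0.17 (adjusted p = 0.025), a call lost without control replicate 1, 3 or 4. The list's counts are not stable: higher members numbered 2 to 5 and lower members 0 to 2 when 1 array was left out, and were 3 and 0 without control replicate 1, 2 and 1 without control replicate 3, and 3 and 0 without control replicate 4. Higher members also numbered 3 without knockout replicate 1 or 3, and lower members 1 without knockout replicate 4 or with cyclic loess. Over all genes 6.18%, 5.63% and 8.65% were higher without control replicate 1, 3 or 4 in turn. The vestigial-like TEAD cofactors Vgll1, Vgll2, Vgll3 and Vgll4 gave 0 calls of 4 by limma, and 0 of them had an unadjusted p under 0.05, with log2 fold changes from −0.03 to 0.38; the value of Vgll1, nearest to 0, changed sign under some alternatives.

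Targets of YAP and TAZ beyond the CCN genes did not rise together. Of 19 measured genes of a published target signature, not counting Lats2, Ccn1 and Ccn2, 4 rose and 7 fell (median −0.40). Over all genes 12.5% rose and 13.0% fell. In the fit of brighter genes 23.3% rose and 23.5% fell, so the 4 rises lie near that share. Amotl2, a feedback inhibitor of YAP, ran from 4.88 to 5.14 in controls and from 5.88 to 5.98 in knockouts and rose by 0.96 ± 0.18 (limma, adjusted p = 0.0066). Arhgef17 rose by 1.02 ± 0.23 (adjusted p = 0.012), a call lost without control replicate 1 or 3.

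Other targets in that list fell. Asap1, an Arf regulator, stood at −0.91 ± 0.19 (limma, adjusted p = 0.0092), a call lost if control replicate 3 was left out or the length trend was removed, and Ccdc80, a matrix protein, at −0.996 ± 0.22 (adjusted p = 0.013), lost without control replicate 1. Ankrd1, often measured beside Ccn1 and Ccn2 as a readout of YAP and named here after its values were seen, ran from 6.03 to 6.78 in controls and from 4.95 to 5.86 in knockouts, at −0.99 ± 0.31 (adjusted p = 0.044). That call was lost when any array except knockout replicate 4 was left out (−1.11 to −0.74, adjusted p of 0.069 to 0.16), at a value below 0 each time, and also with the replicate number as a block (adjusted p = 0.058). The 3 readout genes Ccn1, Ccn2 and Ankrd1 thus did not share a direction, with 3 of 3 knockout arrays above the controls for Ccn1 and Ccn2 and 3 of 3 below for Ankrd1. Counts in this list moved with single arrays: 1 higher and 2 lower without control replicate 1, 1 and 1 without control replicate 3, and 2 and 4 without control replicate 4. Over all genes 6.18% were higher and 6.54% lower without control replicate 1, and 5.63% and 6.04% without control replicate 3, so those counts lie near the background. With the length trend removed 3 were lower.

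The other CCN genes gave 1 rise and 0 falls among 4, where 12.5% of all genes rose and 13.0% fell. With 4 genes, 1 rise cannot be told from that share. Ccn5, a CCN protein that lacks the C-terminal domain of its relatives, rose by 1.04 ± 0.23 (limma, adjusted p = 0.012), a call lost without control replicate 1 or 3. Ccn3 stood at −1.02 ± 0.41 (adjusted p = 0.10), and passed without knockout replicate 3 (−1.48) or after removal of the length trend (−1.27). Ccn4 and Ccn6 did not pass, at −0.31 ± 0.34 and 0.58 ± 0.35.

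Ccn1 and Ccn2 are also driven by regulators other than TEADs. Srf, the serum response factor, ran from 4.79 to 5.31 in controls and from 6.12 to 6.62 in knockouts and rose by 1.28 ± 0.22 (limma, adjusted p = 0.0048). Its coactivator Mrtfb fell by 1.26 ± 0.22 (adjusted p = 0.0051), while Mrtfa stood at 0.88 ± 0.26 (adjusted p = 0.037), a call lost without control replicate 1, 3 or 4 or knockout replicate 4. The list of SRF and MRTF genes held 2 of 11 higher and 1 lower, with a median of 0.18, which is near the shares over all genes (12.5% and 13.0%), and Vcl, the fourth by p, did not pass at −0.93 ± 0.40. Immediate early genes, to which Ccn1 and Ccn2 are often counted, rose at 6 of 16 and fell at 0 (median 0.65). Over all genes 12.5% rose and 13.0% fell. Most of the 16 are short and lie in the 2 shortest bins of protein-coding genes. In those bins 2.26% and 5.66% fell and 14.6% and 20.7% rose, so 0 falls lies near the share for such lengths. The list rose at 3 of 16 if control replicate 3 was left out (5.63% of all genes) or the length trend was removed. Jund and Junb, subunits of AP-1, rose by 2.12 ± 0.21 and 2.17 ± 0.22, and Fosl2 by 1.08 ± 0.22 (adjusted p = 0.0014, 0.0015 and 0.0083).

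**Figure D4:**
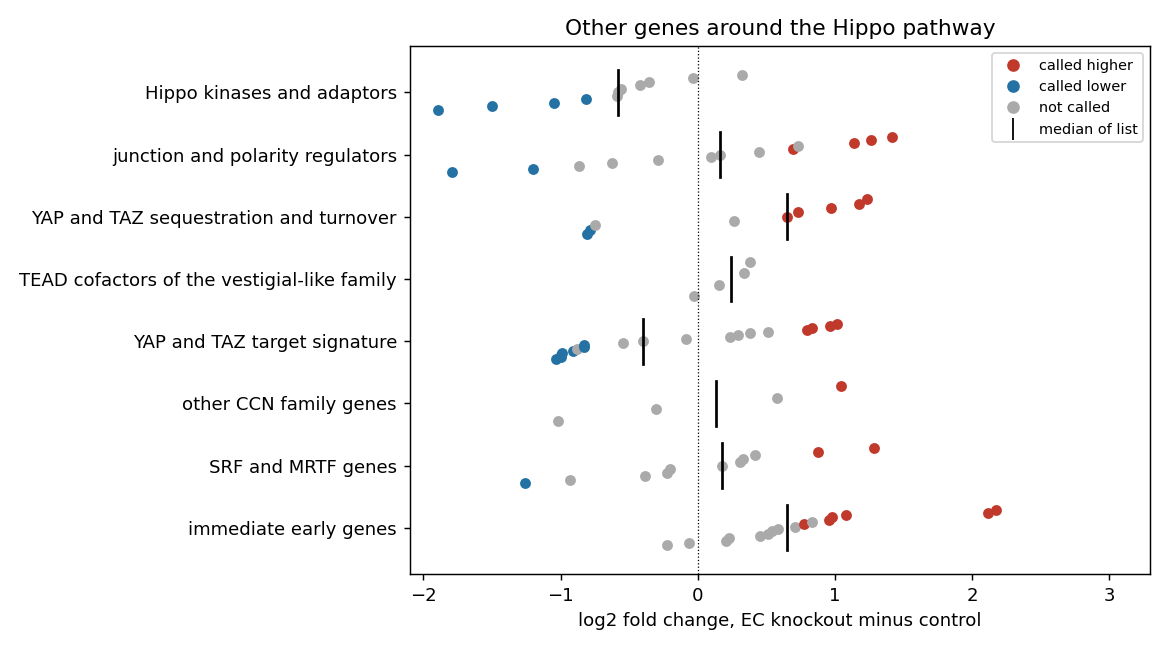
Each point is 1 gene of a list around the Hippo pathway, at its log2 fold change, EC knockout minus control, with red for genes called higher, blue for genes called lower and grey for genes not called by limma (n = 3 arrays per group), and a black bar at the list's median. The kinases and adaptors have their median at −0.58 and the target signature at −0.40 with calls on both sides. The immediate early genes, most of them short, have theirs at 0.65 with 0 calls below 0. Over all genes 13.0% were called lower, and 2.26% in the bin of shortest protein-coding genes.

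Pattern across the 6 arrays was compared by the root mean square (RMS) difference between log2 values, each centred on its gene's mean, over 11321 other genes above the median level. Among the 10 Hippo genes the closest pair was Tead4 and Ccn1 (RMS 0.19), followed by Tead2 with Tead3 (0.22) and Ccn1 with Ccn2 (0.22), and the most distant was Tead3 and Lats1 (1.59). In the wider set the 3 genes nearest to Ccn1 were Rasl11a (0.022), Smpd1 (0.042) and Tinagl1 (0.060), and those nearest to Ccn2 were Dap (0.029), Sumo3 (0.065) and Galnt2 (0.069). That these genes rose follows from their choice, by 0.64 to 0.89, and their calls, like those of Ccn1 and Ccn2, were lost without control replicate 1 or 3. Smpd1 also lost its call without knockout replicate 3 or 4, Sumo3 without control replicate 4 or knockout replicate 1, and Galnt2 without control replicate 4 or knockout replicate 1 or 3. With all arrays kept, Rasl11a (0.60), Smpd1 (0.56) and Sumo3 (0.55) did not pass after removal of the length trend, nor did Galnt2 with an intensity trend in eBayes (adjusted p = 0.051) or a replicate block (adjusted p = 0.068). The genes nearest to Yap1, Vps28 (0.071), Fam168a (0.074) and Tuft1 (0.076), did not pass.

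Marker lists of cell types in the lung were counted in the same fit, where 12.5% of all genes rose and 13.0% fell. Most markers outside the thymus list are bright, and in the fit of brighter genes 23.3% rose and 23.5% fell. Of 15 endothelial markers 5 rose and 6 fell, with a median log2 fold change of −0.09. Those that rose were Vwf (1.61), Sox18 (1.27), Egfl7 (1.06), Eng (1.03) and Cldn5 (0.91). Those that fell were Ptprb, Tek, Emcn, Pecam1, Cdh5 and Erg, which except for Cdh5 lie in the longest bin of protein-coding genes. Vwf lies in that bin too. The summed linear level of the markers was 3858 to 4628 on control and 2714 to 2869 on knockout arrays. In that sum the bright Cdh5, Pecam1 and Ptprb, which fell, weigh most in the controls, so it does not measure endothelial content. Of 4 mesothelial markers, from the lining of the lung, 1 rose (Msln, by 1.55) and 0 fell, with sums of 111.0 to 153.1 and 217.8 to 255.7. Of 6 leukocyte markers 2 fell (Ptprc and Mrc1) and 0 rose, with sums of 217.9 to 259.6 and 162.8 to 216.0. The 4 that did not pass were split, with Cd3e (0.79) and Cd68 (0.34) above 0 and Siglecf (−0.45) and Itgam (−0.42) below. Of 7 fibroblast markers 2 rose and 1 fell, with overlapping sums of 785.9 to 821.3 and 771.2 to 914.5. Smooth muscle markers gave 0 calls of 6 by limma, 1 of them (Des, 0.97) with an unadjusted p under 0.05, and sums of 357.7 to 557.1 and 508.9 to 582.9. Alveolar type 1 and type 2 markers each gave 1 rise and 2 falls among 6, and thymus markers, whose tissue the authors had screened out, 1 rise and 1 fall among 8. The part of all these cell types in the changes of the Hippo genes was not tested.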

How the data were processed

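The authors deposited log2 expression values for each probe set, made with RMA per the submitters' processing notes, whose version and probe sets are not named in the sources used here. The 6 columns share nearly the same quantiles, so brightness was equalised between arrays. No detection calls accompany the values, and precision is limited by how few arrays there are. Among 25428 probe sets, 24705 carried 1 gene symbol, 0 several and 723 none. The brighter probe set was kept for the 1 symbol that had 2, leaving 24704 genes. Gene spans came from RefSeq (GRCm38.p6). Knockout was set against control with limma 3.58.1 (R 4.3.3; lmFit, eBayes), adjusting by Benjamini-Hochberg over all 24704 genes at a threshold of 0.05, with no filter on dim genes. The procedure was tested on simulated data. The members and lists were chosen with earlier results of these data known. Named were all members, up to 4 genes of smallest p per list and the 3 nearest in pattern to Yap1, Ccn1 and Ccn2; others are marked. Alternatives covered filters, genes tested, normalization, gene length, trend, array weights, a replicate block and leaving out each array. The series text states 4 mice per group, and the authors had removed lungs with foreign tissue or a poor transcript response to hypoxia; 3 arrays per group were analysed here.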

Additional observations from a re-analysis of the deposited data

How the results depend on the processing

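With 3 arrays per group, single arrays move the calls. When 1 array was left out, genes called numbered 2882 (without control replicate 3) to 6155, Hippo genes called higher 1 (without control replicate 1) to 5 and called lower 1 to 2. In the same fits the log2 fold change ran from −0.24 to 0.053 for Yap1, −1.59 to −0.68 for Tead1, 0.84 to 1.18 for Tead2, 0.84 to 1.11 for Tead4, 0.68 to 1.03 for Ccn1, 0.68 to 0.85 for Ccn2, −0.11 to 0.13 for Vgll1, −0.18 to 0.046 for Vps28 and −0.29 to 0.099 for Tuft1. Removing the length trend among protein-coding genes left 3 Hippo genes higher, with Ccn1 at 0.56 and Ccn2 at 0.46 no longer past the threshold; Yap1 turned to 0.26, Wwtr1 to 0.052, Fam168a to 0.24 and Tuft1 to 0.16. Tead1 passed as a 2nd lower gene, making 2, when genes under the 25th percentile or under the median level were dropped (−1.26 in both, fewer genes tested), with array weights (−1.17) and with the replicate block (−1.26). Vgll1 turned to 0.0062 when arrays were centred on bright protein-coding genes and to 0.018 with array weights, and Vps28 to 0.0011 with cyclic loess. Apart from the length trend, the cause of these shifts was not tested. Same-numbered arrays did not deviate together (r of 0.062, −0.013 and 0.0038 across genes, which are not independent). Arrays of different numbers ran from −0.11 to 0.11. The labels do not say whether the numbers pair the samples, and so few arrays cannot settle it. The replicate block gave 6082 calls and Hippo genes 5 higher and 2 lower. Lats1 and Tead3 kept their calls and directions in every alternative run.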
